A study of Mus musculus with 8 samples.

Results

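Pramel6, Pramel7, Gm13128, Trim43a and Mep1b are 5 of the 37620 genes that were counted in 8 RNA-seq libraries, made from mouse pluripotent cells and from mesoderm progenitors. They were chosen by their measured fall from stem cells to mesoderm progenitors, which was among the deepest in the series, so their difference between those groups is a description and carries no test here. Of the libraries, 7 came from R1, a mouse embryonic stem cell (mESC) line grown without feeder cells in serum. CHIR99021 at 3 µM, which inhibits GSK3, together with PD0325901 at 1 µM, which inhibits MEK, makes 2i, and a JAK inhibitor at 2 µM turns 2i into 2iJ. BMP4 at 10 ng/ml and an ALK5 inhibitor at 10 µM turn 2iJ into 2iJ+B-A. R1 cells were collected on day 5 in 2i and in 2iJ (1 library each) and on days 2, 5 and 11 in 2iJ+B-A (n = 3). A sorted library held GFP-positive cells of a CDX2-GFP reporter line, collected on day 2 in 2iJ+B-A. The 2 mesoderm progenitor libraries, days 3 and 4, came from R1 embryoid bodies in a different medium. The later of them had also been exposed to an inhibitor of Wnt secretion. The labels do not say whether libraries of 1 group came from separate cultures, so the spread between them may be partly technical and, in 2iJ+B-A, it includes the change over days.

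Levels are given as counts-per-million (CPM), the share of a library's reverse-strand gene counts that fell on the gene, with a 95% Wilson interval for counting error. Library totals ran from 19810855 in the sorted cells to 31453888, and 3 counts, taken as the floor, correspond to between 0.0954 and 0.151 CPM. All 5 genes passed the filter of at least 10 counts in at least 2 libraries, as did 16961 genes in all. The sorted library stood apart in quality, with 29.7% of read pairs unmapped against between 2.17% and 3.85% elsewhere, and 27.8% of uniquely aligned pairs in no gene against between 7.83% and 13.2% elsewhere. These values differ along with every comparison of the sorted cells, and their part in those results was not tested. Marker genes matched the labels in part. The summed level of 6 trophectoderm markers was 3813 CPM in the sorted cells, between 72.1 and 1196 CPM in the unsorted stem cells, and 587 and 318.5 CPM in the mesoderm progenitors. Most of the sum came from the keratins Krt8 and Krt18 in the sorted cells (1731 and 1595 CPM) and in the mesoderm progenitors. The level of Cdx2 itself was 234.5 CPM after the sort and did not exceed 40.2 CPM in another library, whereas Elf5, a defining trophoblast factor, stayed at or below 0.909 CPM in each library. The summed level of 6 mesoderm markers was 1540 and 582 CPM in the mesoderm progenitors and at most 58.7 CPM elsewhere.

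The PRAME family encodes proteins built of leucine-rich repeats, and in the mouse it has expanded into many copies that are used in the germline and the early embryo. Pramel7, a gene of the morula and the inner cell mass, is known for recruiting a CUL2 ubiquitin ligase to UHRF1, the factor that guides maintenance of DNA methylation, and Pramel6 is a relative linked to the same naive state. Gm13128 is a less studied member of this family, which RefSeq names Pramel30. Trim43a belongs to the tripartite motif family, whose typical members carry a RING domain of ubiquitin ligases, and is a gene of the preimplantation embryo. Mep1b encodes meprin beta, a metalloprotease best known from the brush border of the gut and kidney, and is related to neither family.

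Near-identical copies bear on what can be counted. Over aligned bases, the coding sequences of Gm13128 and Pramef17 (Pramel14 in RefSeq) were 99.3% identical, with 1418 of 1428 bases the same and no gap. Pramel7 was 81.2% identical to Gm13128 and 60.8% identical to Pramel6. Trim43a was 98.4% identical to Trim43b and 96.9% identical to Trim43c. Among windows of 126 bases, the read length, that lay inside 1 exon, 54.6% of those of Gm13128 and 7.41% of those of Trim43a occurred more than once in NCBIM37, and none of those of Pramel6, Pramel7 or Mep1b did. Read pairs that aligned to several places were not counted by the authors' counter, so levels of Gm13128 and Pramef17 rest on their distinguishing bases and are uncertain. These windows are shown because they are the most divergent coding stretches of that length inside 1 exon of each pair. Capitals mark the bases that differ between the 2 copies, 3 in the first pair and 6 in the second.
Gm13128 (NCBIM37 chr4:143922880-143923005, plus strand): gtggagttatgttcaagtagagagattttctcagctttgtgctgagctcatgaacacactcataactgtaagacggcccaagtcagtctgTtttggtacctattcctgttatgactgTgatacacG
Pramef17 (NCBIM37 chr4:143581393-143581518, minus strand): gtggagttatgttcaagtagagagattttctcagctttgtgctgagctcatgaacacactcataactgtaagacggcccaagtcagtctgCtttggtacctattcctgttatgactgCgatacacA
Trim43a (NCBIM37 chr9:88482949-88483074, plus strand): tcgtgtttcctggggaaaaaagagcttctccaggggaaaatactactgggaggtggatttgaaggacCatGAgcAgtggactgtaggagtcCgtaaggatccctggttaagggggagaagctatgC
Trim43b (NCBIM37 chr9:88980323-88980448, minus strand): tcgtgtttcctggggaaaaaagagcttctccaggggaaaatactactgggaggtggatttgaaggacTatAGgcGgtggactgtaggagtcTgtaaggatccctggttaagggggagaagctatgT

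Pramel7, Gm13128 and Pramef17 also resemble one another upstream of their starts. Over the 250 bases before the RefSeq start (GRCm38.p6), identity was 98.0% of aligned bases between Gm13128 and Pramef17 and 83.0% between Pramel7 and Gm13128. The windows of Pramel6 and Trim43a matched each other and these 3 at between 53.8% and 61.2% of aligned bases. The 3 like windows are shown because 2 of these genes, Gm13128 and Pramef17, shared a pattern across libraries that Pramel7 did not follow. Capitals mark the runs of at least 12 bases present in all 3 windows, which cover 87 bases of each and of which the longest is 23 bases.
Pramel7 (chr2:87492419-87492668, minus strand): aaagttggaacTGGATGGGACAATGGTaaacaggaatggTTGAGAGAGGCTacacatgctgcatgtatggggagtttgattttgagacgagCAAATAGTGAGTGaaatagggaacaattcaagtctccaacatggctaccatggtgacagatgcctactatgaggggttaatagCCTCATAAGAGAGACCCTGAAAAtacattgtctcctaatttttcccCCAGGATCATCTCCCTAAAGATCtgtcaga
Gm13128 (chr4:144329999-144330248, plus strand, RefSeq Pramel30): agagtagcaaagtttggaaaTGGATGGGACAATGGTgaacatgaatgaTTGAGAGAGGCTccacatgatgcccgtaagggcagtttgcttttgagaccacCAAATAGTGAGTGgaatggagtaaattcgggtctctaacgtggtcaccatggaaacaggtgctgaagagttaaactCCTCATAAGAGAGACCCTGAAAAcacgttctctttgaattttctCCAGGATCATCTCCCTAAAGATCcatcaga
Pramef17 (chr4:143994370-143994619, minus strand, RefSeq Pramel14): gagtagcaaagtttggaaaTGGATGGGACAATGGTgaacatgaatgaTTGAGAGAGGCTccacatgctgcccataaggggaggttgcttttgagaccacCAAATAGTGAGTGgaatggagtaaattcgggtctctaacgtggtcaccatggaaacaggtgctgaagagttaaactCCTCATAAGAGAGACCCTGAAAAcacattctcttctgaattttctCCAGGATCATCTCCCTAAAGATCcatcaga

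A few short motifs were searched on both strands of these windows and of those of Pramel6 and Trim43a. The STAT half-site pair TTCNNNGAA occurs in 7.02% of all 32851 RefSeq start windows of this length, the SMAD sequence GGCGCC in 9.59%, the TATA sequence TATAAA in 12.4% and the DUX motif TGATTNAATCA in 0.0304%. None of these letters was found in any of the 5 windows.

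In both mesoderm progenitor libraries the 5 genes were at or near 0. Pramel6, Gm13128, Trim43a and Mep1b had no reverse-strand count in either library. The floor of 3 counts lay at 0.0954 CPM (day 3) and 0.0969 CPM (day 4), and the Wilson interval of these 4 genes reached 0.122 and 0.124 CPM. Pramel7 had 4 counts on day 3 (0.127 CPM) and 2 counts on day 4 (0.0646 CPM). Set against the day 4 floor, the mean level in 2iJ+B-A was 627 times as high for Trim43a and 508 times for Gm13128. It was 293 times for Mep1b and 179 times for Pramel6, and the Wilson limits would give lower ratios. For Pramel7 the ratio was 344, with a counting interval from 158 to 939. By the fitted difference, Trim43a, Gm13128, Mep1b and Pramel6 took ranks 1 to 4 among the 16961 genes and Pramel7 took rank 85. With unstranded counts, where Trim43a had 3 counts on day 4, its fitted difference went from -13.7 to -10.26, behind Gm13128 (-13.43), Mep1b (-12.66) and Pramel6 (-11.92). The rule states no threshold, but the neighbours of Pramel7 in that order were Gm9 (1.46 CPM in 2iJ+B-A on average and no mesoderm count) and Rhox2a (1.44 CPM and no mesoderm count). Of all genes, 15.5% were called lower in mesoderm progenitors than in 2iJ+B-A, and all 5 chosen genes were, as the choice fixed. In bulk RNA, fewer cells of a type and less RNA per cell cannot be told apart.

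**Figure D1:**
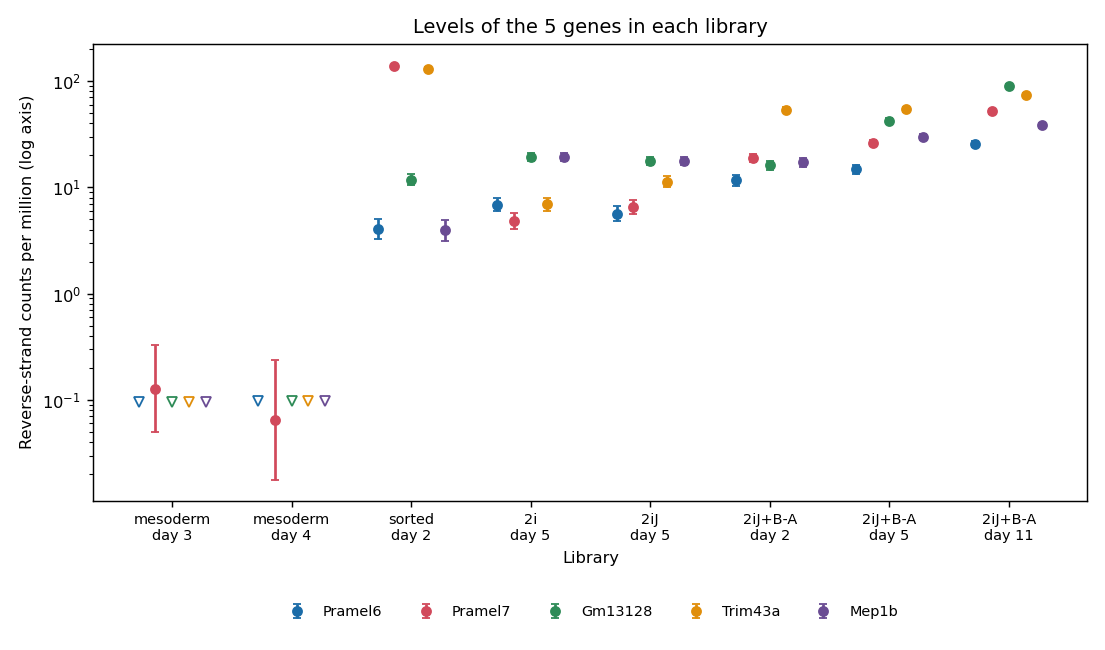
Level of each of the 5 genes in each of the 8 libraries, in CPM of reverse-strand counts on a log axis, with bars for the 95% Wilson interval; open triangles stand at 3 counts for genes with no count. Pramel7 and Trim43a stand at 136.8 and 128.9 CPM in the sorted cells, and all 5 genes are highest within 2iJ+B-A on day 11.

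Trim43a (ENSMUSG00000067399, NCBIM37 chr9:88475729-88483945, plus strand, 7 exon blocks) differed little between days 2 and 5 of 2iJ+B-A and stood well above 2iJ on both. It had 6.89 CPM (interval 5.99 to 7.93) in 2i, 11.3 CPM (10.1 to 12.7) in 2iJ, and 53.6, 54.1 and 74.5 CPM on days 2, 5 and 11 of 2iJ+B-A (mean 60.7 ± 11.9, SD, n = 3). It had 128.9 CPM (124 to 134) in the sorted cells. All 3 libraries of 2iJ+B-A were above 2i and 2iJ and below the sorted library, and days 2 and 5 had overlapping intervals. The ratio to 2iJ was 4.75 on day 2 and 6.60 on day 11.

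Pramel7 (ENSMUSG00000025839, chr2:87329244-87337250, minus strand, 4 exon blocks) had 4.83 CPM (4.09 to 5.72) in 2i and 6.54 CPM (5.62 to 7.60) in 2iJ. Its levels over days 2, 5 and 11 of 2iJ+B-A were 18.9, 26.1 and 51.6 CPM (mean 32.2 ± 17.2, SD, n = 3), and it had 136.8 CPM (131.7 to 142) in the sorted cells. The 2i and 2iJ intervals overlapped, and each later step stood apart from the one before it in counting error. The sorted library was 7.22 times the unsorted library of the same day and 20.9 times 2iJ.

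Pramel6 (ENSMUSG00000025838, chr2:87346722-87351029, plus strand, 6 exon blocks) is the upstream neighbour of Pramel7 in the opposite orientation. It had 6.82 CPM (5.92 to 7.86) in 2i, 5.64 CPM (4.80 to 6.64) in 2iJ and 11.7, 14.8 and 25.5 CPM on days 2, 5 and 11 of 2iJ+B-A (mean 17.3 ± 7.28, SD, n = 3). Its sorted level was 4.09 CPM (3.29 to 5.08), an interval that overlaps that of 2iJ. The sorted library was thus the lowest of the stem cell libraries for Pramel6 and the highest for Pramel7, although the genes lie side by side.

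Gm13128 (ENSMUSG00000078508, chr4:143920152-143923368, plus strand, 3 exon blocks) had like levels in 2i, 2iJ and on day 2 of 2iJ+B-A, with 19.4 CPM (17.8 to 21.1), 17.7 CPM (16.1 to 19.4) and 16.2 CPM (14.7 to 17.9). By day 5 it stood at 42.2 CPM and by day 11 at 89.3 CPM (mean of 2iJ+B-A 49.2 ± 37.1, SD, n = 3). The sorted library had 11.8 CPM (10.4 to 13.4), below the 3 libraries of 2iJ+B-A. Its near-copy Pramef17 followed the same order, with 10.7 CPM in 2i, 10.0 CPM in 2iJ, 10.1, 24.5 and 47.3 CPM over the days and 4.34 CPM in the sorted cells. Since the pair may share reads, these are not independent observations.

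Mep1b (ENSMUSG00000024313, chr18:21229286-21258700, plus strand, 16 exon blocks, overlapped by Gm6378 on the minus strand) had 19.4 CPM (17.8 to 21.1) in 2i, 17.6 CPM (16.0 to 19.3) in 2iJ and 17.2, 29.9 and 38.3 CPM over days 2, 5 and 11 of 2iJ+B-A (mean 28.4 ± 10.6, SD, n = 3). Its sorted level was 3.94 CPM (3.16 to 4.91), so that the unsorted library of the same day was 4.36 times higher. Its partner Mep1a, the meprin alpha gene, never exceeded 0.0651 CPM.

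Per kilobase of exon, the order of the 5 genes changed from library to library. In 2i it ran from Gm13128 at 11.1 CPM per kb through Mep1b (8.11), Pramel6 (3.27) and Trim43a (3.03) to Pramel7 (2.26). On day 11 of 2iJ+B-A it was Gm13128 (51.2), Trim43a (32.8), Pramel7 (24.2), Mep1b (16.0) and Pramel6 (12.3). In the sorted cells Pramel7 led at 64.1 CPM per kb, followed by Trim43a (56.7), Gm13128 (6.77), Pramel6 (1.96) and Mep1b (1.65).

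Tests used edgeR's quasi-likelihood fit on all 8 libraries, with p-values adjusted by Benjamini-Hochberg over 16961 genes. Groups with 1 library borrow their spread from the others. Comparisons that contain 2iJ+B-A share its libraries with the contrast that chose the genes, so their values are not independent of the choice. The rule speaks of stem cells without naming libraries, so 2i and 2iJ may have entered the choice as well.

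Between 2iJ and 2i, the 95% interval of each member held 0. Trim43a had a log2 fold change of 0.70 ± 0.37 (SE), with a 95% interval from -0.24 to 1.64, and Pramel7 one of 0.42 ± 0.69, from -1.25 to 2.09. Pramel6 had -0.29 ± 0.70 (from -2.04 to 1.47), Mep1b had -0.15 ± 0.61 (from -1.70 to 1.39) and Gm13128 had -0.14 ± 1.07 (from -2.83 to 2.54). The adjusted p was 1 for each of them in edgeR, and the intervals are wide enough to hold a 2-fold change for every member. No gene of the series was called (0%), 86 had an unadjusted p under 0.05, and DESeq2 called 0.

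With BMP4 and the ALK5 inhibitor added to 2iJ, Trim43a, Pramel7 and Pramel6 stood higher, although none of them passed the test. These 3 were above both 2i and 2iJ in all 3 libraries of 2iJ+B-A, as were 26.5% of all genes, and at least 2 times the 2iJ level in all 3, as were 6.01% of all genes. The 2iJ library is from day 5 alone, so days 2 and 11 of 2iJ+B-A differ from it in culture time as well. On day 5 the ratio to 2iJ was 4.79 for Trim43a, 3.99 for Pramel7, 2.61 for Pramel6, 2.38 for Gm13128 and 1.70 for Mep1b. The log2 fold change was 2.36 ± 0.35 (SE) for Trim43a, 2.24 ± 0.64 for Pramel7, 1.55 ± 0.63 for Pramel6, 1.41 ± 0.95 for Gm13128 and 0.63 ± 0.52 for Mep1b. Without day 11, the value for Gm13128 was 0.64 ± 0.67. Adjusted p-values from edgeR were 0.342 for Trim43a, 0.491 for Pramel7 and at least 0.656 for the other 3. No gene was called (0%), whereas 1290 had an unadjusted p under 0.05 and DESeq2 called 305 (1.80%). At an unadjusted p under 0.05, Trim43a and Pramel7 were among the 4.00% of genes that were higher. With 2i pooled with 2iJ as the reference and the mesoderm and sorted libraries left out, Trim43a (adjusted p = 0.00928) and Pramel7 (adjusted p = 0.0339) passed, and DESeq2 called both as well (adjusted p = 4.1e-07 and 0.0199). The summed level of 6 trophectoderm markers also differed here, at 108 CPM in 2iJ and between 507 and 1196 CPM in 2iJ+B-A. Most of that difference came from Krt8 and Krt18, at 16.2 and 13.2 CPM in 2iJ and at least 198.1 and 160.5 CPM in 2iJ+B-A. Cdx2 and Gata3 were also higher in each 2iJ+B-A library. Tcfap2c had 66.2 CPM in 2iJ and went from 117.2 CPM on day 2 of 2iJ+B-A to 38.6 CPM on day 11. The part of these markers in the result was not tested.

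All 5 genes were higher on day 5 than on day 2 of 2iJ+B-A and higher on day 11 than on day 5, an order found in 23.5% of all genes. Day 11 was at least 2 times day 2 for Gm13128 (5.52 times), Pramel7 (2.72), Mep1b (2.23) and Pramel6 (2.19), as for 11.2% of all genes, and 1.39 times day 2 for Trim43a. The fitted slope per doubling of days was 0.99 ± 0.14 (SE) on the log2 scale for Gm13128, 0.57 ± 0.15 for Pramel7, 0.46 ± 0.16 for Mep1b, 0.45 ± 0.21 for Pramel6 and 0.18 ± 0.13 for Trim43a, for which it was -0.050 ± 0.34 without day 11. Without day 11 the slope was 0.29 ± 0.37 for Pramel7 and 0.20 ± 0.65 for Pramel6, and without day 2 it was 0.89 ± 0.42 for Pramel7, 0.72 ± 0.68 for Pramel6 and 0.44 ± 0.38 for Trim43a. Adjusted p-values from edgeR lay between 0.827 and 0.867, and no gene was called (0%), whereas 1004 had an unadjusted p under 0.05 and DESeq2 called 115 (0.678%). Gm13128 was among the latter (adjusted p = 0.00016), and edgeR called it with the 3 libraries of 2iJ+B-A alone (adjusted p = 0.00682). Gm13128, Pramel7 and Mep1b were among the 3.38% of genes that were higher at an unadjusted p under 0.05. Leaving out 1 mesoderm library decided 2 of these calls: without day 3 the adjusted p was 0.00795 for Gm13128 and 0.0476 for Pramel7, and without day 4 it was 0.00408 and 0.0343. The slope refits with 2iJ+B-A alone or without 1 mesoderm library leave 1 residual degree of freedom, against 2 in the main fit, so those calls rest on very little spread. Each day is 1 library, and the sum of 5 primitive endoderm markers stood at 11.1, 33.1 and 137.2 CPM over the same days, its part in the result not being tested.

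**Figure D2:**
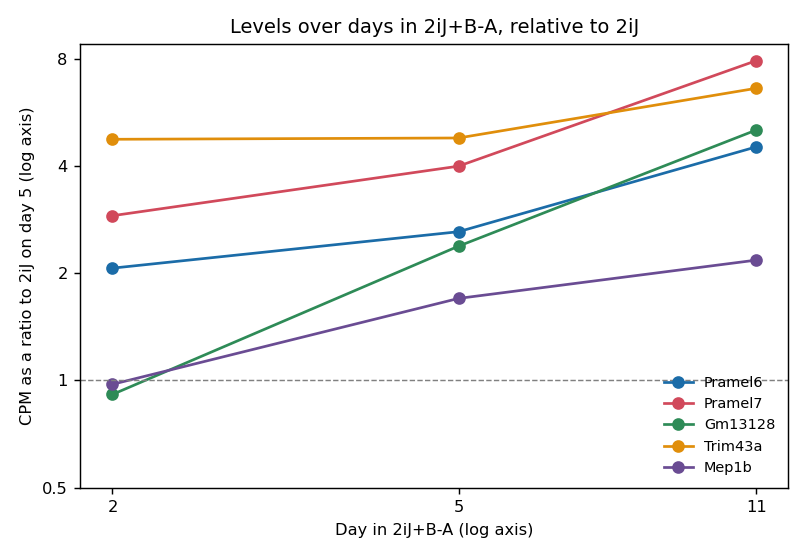
Level of each gene on days 2, 5 and 11 of 2iJ+B-A as a ratio to 2iJ on day 5, both axes on a log scale, 1 library per point. Trim43a starts at 4.75 and ends at 6.60, whereas Gm13128 and Mep1b start near 1 and end at 5.04 and 2.18.

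Against 2iJ+B-A, the Cdx2-GFP-positive cells had more Pramel7 and Trim43a and less of the other 3 genes, in a library where most genes lay outside the range of 2iJ+B-A. Pramel7 and Trim43a were higher in the sorted library than in all 3 libraries of 2iJ+B-A, as were 33.5% of all genes, and Pramel6, Gm13128 and Mep1b were lower than all 3, as were 41.7%. The log2 fold change against 2iJ+B-A was 2.14 ± 0.50 (SE) for Pramel7 and 1.13 ± 0.28 for Trim43a, and it was -2.03 ± 0.65 for Pramel6, -2.01 ± 0.99 for Gm13128 and -2.80 ± 0.61 for Mep1b. No member was called in edgeR, against 5.42% of all genes. DESeq2 called 15.9% of all genes and 4 of the 5 members, namely Mep1b (adjusted p = 6.59e-05), Pramel7 (0.00509), Trim43a (0.0166) and Pramel6 (0.0181, as adjusted p-values). Adjusted p-values from edgeR were 0.0612 for Pramel7, 0.0622 for Mep1b, 0.0778 for Trim43a, 0.124 for Pramel6 and 0.260 for Gm13128. Pramel7 and Trim43a were among the 12.3% of genes higher at an unadjusted p under 0.05, and Pramel6 and Mep1b were among the 14.7% lower. Since the sorted cells were collected on day 2, the fit with a day slope compares them with that day. It gave 2.98 ± 0.38 for Pramel7, 1.37 ± 0.31 for Trim43a, -1.40 ± 0.52 for Pramel6, -2.14 ± 0.41 for Mep1b and -0.43 ± 0.33 for Gm13128, with adjusted p-values between 0.0724 and 0.490. Without mesoderm day 3, in the fit by groups, the adjusted p was 0.0445 for Pramel7, 0.0424 for Trim43a and 0.0322 for Mep1b, and without mesoderm day 4 it was 0.0428, 0.0407 and 0.0306. The sorted cells came from another line, and their library was the shallowest. In it 5 fibroblast markers summed to 100.2 CPM, against between 7.85 and 15.9 CPM elsewhere. All 5 were above 9 CPM there, although Thy1, at 9.19 CPM, also had 7.53 CPM in 2i and 6.38 CPM in 2iJ. None of these differences can be told apart from the sort, and the part of the fibroblast markers was not tested.

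**Figure D3:**
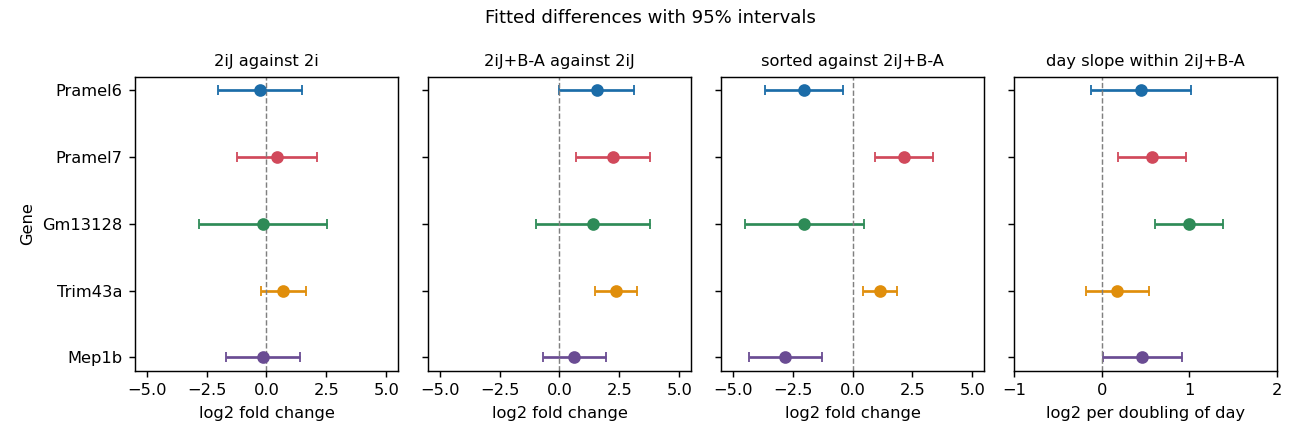
Fitted log2 fold changes of the 5 genes in 3 comparisons, and the fitted log2 slope per doubling of days, with 95% intervals from the edgeR fit. In the sorted cells Pramel7 (2.14) and Trim43a (1.13) lie to the right of 0 and the other 3 genes to the left.

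Of the 38 PRAME family genes in the annotation, 17 passed the filter on low counts. Pramef12 had the highest level, with 75.5 CPM in 2i, 84.6 CPM in 2iJ, 188, 180 and 143 CPM over the days of 2iJ+B-A and 94.2 CPM in the sorted cells, and it kept 3.75 and 2.00 CPM in the mesoderm progenitors. Pramef8 was the exception among the highest family genes, with 19.8 and 25.3 CPM in the mesoderm progenitors and between 26.1 and 45.2 CPM elsewhere. Gm12794 ran opposite to Pramel7 with added BMP4 and ALK5 inhibitor. It had 21.0 CPM in 2i, 22.6 CPM in 2iJ and 1.39, 1.02 and 0.423 CPM over the days of 2iJ+B-A (log2 fold change against 2iJ -4.65 ± 0.65, edgeR adjusted p = 0.244).

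With BMP4 and the ALK5 inhibitor, 0 of the 17 tested family genes were called in edgeR, and at an unadjusted p under 0.05 2 were higher and 7 lower, against 4.00% and 3.60% of all genes. DESeq2 called Pramel7 higher and Gm12794, Gm13109 and Gm13119 lower. The family's median log2 fold change was -0.27, against 0.03 over all genes. Of the 17, 6 were called higher in the sorted cells than in 2iJ+B-A and 0 lower in edgeR (median 2.19, against -0.08 over all genes), whereas 3.34% of all genes were called higher and 2.08% lower. DESeq2 called 9 of the 17 higher and 2 lower, Pramel6 and Pramef17. Pramel5 reached 19.0 CPM in the sorted library, where other libraries had 0.586 CPM or less (log2 fold change 5.68 ± 0.66, adjusted p = 0.0204), and Pramel1 was at 13.4 CPM against at most 4.09 CPM (2.19 ± 0.46, adjusted p = 0.0488). Gm12794 was also called (14.8 CPM, 4.02 ± 0.65, adjusted p = 0.0297). Trim43b, the copy of Trim43a, had 29.8 CPM in the sorted cells, 0.711 CPM in 2i, 1.21 CPM in 2iJ and 1.96, 2.58 and 7.13 CPM over the days (sorted against 2iJ+B-A 2.99 ± 0.76, adjusted p = 0.0717). These adjusted p-values are from edgeR, and the quality values of the sorted library given above stand beside them too.

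**Figure D4:**
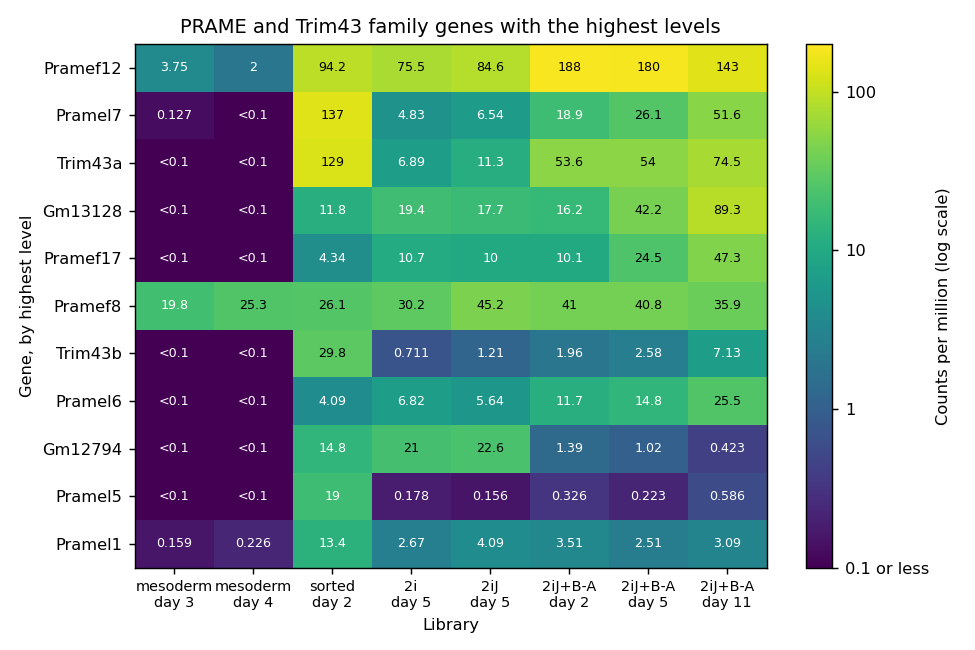
Levels of the 11 PRAME and Trim43 family genes with the highest level in any library, in CPM on a log colour scale, 1 column for each of the 8 libraries and the value printed in each cell. Pramef8 is at 19.8 and 25.3 CPM in the mesoderm progenitors, whereas Pramel7 and Trim43a are near or at 0 there and peak in the sorted cells.

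The two-cell-like list, genes of the zygotic genome activation stage that a few mESCs switch on, had its highest summed level in 2i and 2iJ. Its 10 genes matched in the annotation summed to 295.5 CPM in 2i and 294.6 CPM in 2iJ, to 17.7, 7.09 and 3.38 CPM over the days of 2iJ+B-A, and to 51.7 CPM in the sorted cells. All 8 tested genes were lower in 2iJ+B-A than in 2iJ at an unadjusted p under 0.05, as were 3.60% of all genes, and 0 were called in edgeR and 6 in DESeq2 (median log2 fold change -4.95). In the sorted cells 5 of the 8 were higher than in 2iJ+B-A at an unadjusted p under 0.05, as were 12.3% of all genes (median 2.50). Of these, 1 was called in edgeR, Tdpoz4 (6.46 ± 0.70, adjusted p = 0.0114), and DESeq2 called 3. Tdpoz4 (7.27 CPM) and Zfp352 (3.84 CPM) were highest in the sorted library, whereas the matched Zscan4 genes and Tdpoz3 were highest in 2i or 2iJ. Zscan4c, for example, had 91.6 CPM in 2i and 17.6 CPM in the sorted cells.

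Genes of the pathways in which Pramel7 is placed were measured alongside, as RNA. The ligase acts on UHRF1 protein, which these libraries do not measure. Uhrf1, the target of the ligase, had between 334 and 497 CPM in the unsorted stem cells, 273 CPM in the sorted cells and 348 to 433 CPM in the mesoderm progenitors. In 2iJ+B-A against 2iJ, 0 of 9 genes of DNA methylation and 0 of 4 genes of the CUL2 ligase were called in edgeR (median log2 fold changes -0.02 and -0.06), and likewise 0 of 9 and 0 of 4 in the sorted cells against 2iJ+B-A (-0.60 and 0.16). DESeq2 called Dnmt3a lower in the former, and 1 gene of DNA methylation higher and 3 lower in the latter, with 0 of the CUL2 ligase in both. Of 12 genes of LIF, JAK and STAT3 signalling, 0 were called between 2iJ and 2i in edgeR or DESeq2, and the fitted value lay below 0 for 7 and above 0 for 5. The largest fitted falls were those of Bcl3 (4.26 CPM in 2i and 1.83 CPM in 2iJ), Tcfcp2l1 (687.4 and 343.9 CPM) and Klf4 (115.1 and 58.6 CPM). Stat3 had 27.1 CPM in 2i and 14.1 CPM in 2iJ, and Socs3, the feedback inhibitor of the pathway, had 2.31 and 1.21 CPM. In the other direction, Il6st, which encodes a receptor subunit of LIF, had 88.1 and 121.8 CPM, and Pim1 and Pim3 had 106.3 and 46.1 CPM in 2i and 118.4 and 57.3 CPM in 2iJ. In the sorted cells 1 of the 12 was called in edgeR, Socs3 at 40.7 CPM against 3.06 to 3.82 CPM in 2iJ+B-A (log2 fold change 3.62 ± 0.45, edgeR adjusted p = 0.0167). Of all genes, 3.34% were called higher there in edgeR. DESeq2, which called 15.9% of all genes, called Socs3 and Pim1 higher and Il6st and Lifr lower. The fitted value lay above 0 for 8 of the 12 and below 0 for 4. Of 13 naive pluripotency genes, 2 were called in edgeR in the sorted cells, both lower than in 2iJ+B-A, namely Tcl1 (-3.47 ± 0.51, adjusted p = 0.0251) and Esrrb (-1.39 ± 0.29, adjusted p = 0.0478). Of all genes, 2.08% were called lower there in edgeR. DESeq2 called 1 of the 13 higher, Klf5, and 4 lower. The list was mixed, with fitted values above 0 for 5 genes and below 0 for 8.

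Likeness was measured as the root mean square difference of mean-centred log2(CPM + 0.5) over the 6 stem cell libraries, mesoderm left out, among 11053 genes with at least 10 CPM in at least 1 library. Trim43a was closest to Sgce (0.20), S100a1 (0.35) and Slc2a12 (0.35), and Pramel7 to Foxi3 (0.22), Sh3tc2 (0.22) and Gata6 (0.26). Pramel6 was closest to Lpl (0.14), Fmn2 (0.16) and Gpx3 (0.23). Gm13128 was closest to 5330411J11Rik (0.15), Eps8 (0.17) and Samd9l (0.19), and Mep1b to Pla2g4e (0.14), Sh3pxd2b (0.17) and Dpp4 (0.21). Within the set, Pramel7 and Trim43a differed by 0.49 and Pramel6 and Gm13128 by 0.42, whereas Pramel7 and Mep1b differed by 2.22. With the 2 mesoderm libraries added, Fbp2 and Fabp3 came first or within the 3 closest for both Trim43a (0.41 and 0.68) and Pramel7 (0.48 and 0.46). Aoah came first for both Gm13128 (0.45) and Mep1b (0.29). These values are descriptions over libraries that the genes share.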

How the data were processed

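Poly-A RNA from 8 samples was sequenced as read pairs of 126 bases. The authors trimmed reads at a quality of 20 and aligned them to NCBIM37 with STAR 2.4.2a. The deposited values are raw counts of uniquely aligned read pairs per gene, unstranded and for each strand, not normalized and without the study's batch adjustment. Which annotation release the authors counted on is not given in the sources used here. Reverse-strand counts were used, since 5.03% to 6.47% of strand-assigned pairs lay on the other strand. Symbols, exons and coordinates (1-based) came from GENCODE vM1 on the same build.

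Groups and days came from the labels. The design text of the series differs from the labels on culture time, so results that rest on days depend on the labels being right. Counts were fitted in edgeR 4.0.16 (R 4.3.3) with TMM scaling, a coefficient for each of 5 groups (3 residual degrees of freedom) after keeping genes that had 10 or more counts in 2 or more libraries. Change over days was a slope on log2(day) within 2iJ+B-A, which left 2 residual degrees of freedom. The common biological coefficient of variation was 0.363, which includes the differences in day within 2iJ+B-A and between the mesoderm libraries. The threshold was an adjusted p of 0.05. The fit by groups was tested on simulated data in which libraries of a group differed by depth and random spread alone, and the fit with a day slope was not. Dividing a log2 fold change by the root of its F statistic gave its standard error. DESeq2 1.42.0 and the other alternatives are in the closing section. Wilson intervals and floors cover counting error only. Coding sequences were aligned with Biopython.

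The 5 genes and all lists were chosen with earlier results of these data known. Of the PRAME and Trim43 families and Mep1a, the 12 genes with the highest level were named, the 5 chosen genes counted among them. Gm13109 and Gm13119 were also named for their DESeq2 calls, and Trim43c and Mep1a as relatives of chosen genes. In other lists, genes that passed a tested comparison (at most 4) or carry a role were named, along with some that went another way or serve as examples. The 3 closest genes by likeness were named for each gene. Some likeness results are not reported here. Of listed genes, 3 two-cell-like symbols had no match in the annotation.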

Additional observations from a re-analysis of the deposited data

Results flagged for a closer look

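Trim43a had more read pairs on the strand opposite to the gene than its library's overall share. That share was 11.04% (95% Wilson interval 8.08% to 14.9%) in 2iJ against 6.47% over the library, 8.43% (7.10% to 9.98%) on day 2 of 2iJ+B-A against 6.44%, and 6.76% (5.84% to 7.82%) on day 11 against 5.51%. These 3 were the only ones among 30 pairs of gene and library with at least 30 counted pairs whose interval lay above the library's share. The annotation has no gene opposite Trim43a, and the unstranded level on day 11 was 79.7 CPM against 74.5 CPM on the reverse strand.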

How the results depend on the processing

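No paired analysis was possible because the labels give the libraries no replicate numbers. Counts of genes called in 2iJ+B-A against 2iJ were 0 in edgeR, 305 in DESeq2 and 832 with 2i pooled with 2iJ and the mesoderm and sorted libraries left out, and 0 with any 1 mesoderm or 2iJ+B-A library left out, the libraries of the other groups not having been left out. For 2iJ against 2i each alternative gave 0. RLE size factors and unstranded counts kept each of the 5 counts within 1.5 times. For sorted against 2iJ+B-A the 919 calls became 2697 in DESeq2, 1390 without a filter on low counts, 1911 with the compared groups alone, 27 at day 2 with a day slope and 2033 without mesoderm libraries (an alternative chosen after seeing the data). Leaving out 1 library gave 37 (without day 5 of 2iJ+B-A) to 2052 (without mesoderm day 4). For the day slope the 0 calls became 115 in DESeq2, 2 without a filter and 302 with the 3 libraries of 2iJ+B-A alone, and leaving out 1 library gave 0 to 469. The 4584 calls for mesoderm ranged from 2019 to 4538 with 1 library left out, the lowest without day 5 of 2iJ+B-A. Causes were not tested.

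Of 210 refits of member values in the 4 comparisons tested, 28 passed the threshold where the value in the text did not: 18 in the sorted comparison, 6 in the day slope and 4 in 2iJ+B-A against 2iJ. The slope of Trim43a ran from -0.050 (without day 11) to 0.44 (without day 2). CPM on TMM-scaled library sizes or from unstranded counts moved no 2iJ+B-A mean by over 1 SD. The tests are limited by 3 groups with 1 library each and by 2 or 3 residual degrees of freedom in the main fits. Most refits with libraries left out have fewer.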
